A study of Mus musculus with 4 samples.

Results

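The inflammatory and regulatory cytokines described here are 10 genes of secreted signalling proteins: Il1a, Il1b, Il1rn, Il18, Tnf, Il6, Osm, Il10, Tgfb1 and Csf1. They were chosen by gene symbol, as 10 of the 55488 genes in the feature tables, and all 10 were detected in mouse liver cells of 4 genotypes. Cytokines of the interleukin-1 (IL-1) family, tumour necrosis factor (TNF) and IL-6 start and spread inflammation, and in the liver they are known chiefly as products of Kupffer cells (KCs, the resident macrophages) and of blood cells that enter the tissue. IL-1 beta and IL-18 are made as inactive precursors that caspases of the inflammasome cleave, IL-1 alpha acts from damaged cells, and the IL-1 receptor antagonist encoded by Il1rn blocks the receptor that both IL-1 proteins use. IL-10 and transforming growth factor beta 1 restrain immune cells, and colony stimulating factor 1 keeps macrophages alive.

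The study asked what the transcriptional co-activators YAP and TAZ (genes Yap1 and Wwtr1) do in liver epithelium. The 4 single-cell libraries came from livers labelled wildtype (WT), yapko (YAPKO, Yap1 deleted), tazko (TAZKO, Wwtr1 deleted) and dko (DKO, both deleted), with treatment given as no and 1 library for each genotype. In the knock-outs a Cre recombinase under the albumin promoter deletes floxed alleles in hepatocytes (HCs) and biliary epithelial cells (BECs), so the immune and endothelial cells that express most of these cytokines keep intact Yap1 and Wwtr1 alleles. The labels do not say whether WT mice carry floxed alleles or Cre, nor how old the sequenced mice were. The paper calls its WT mice genetically unmodified. HCs and other cells were isolated apart and mixed, so the share of a cell type depends on the mixing.

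RNA was counted as unique molecular identifiers (UMIs, 1 for each captured RNA molecule) with the 10x Genomics 3′ v3.1 kit on a NovaSeq. The deposited tables held 13657 barcodes and 66259687 UMIs for WT, 7711 and 85989454 for YAPKO, 14418 and 49022089 for TAZKO, and 9188 and 77411746 for DKO. After barcodes with fewer than 500 or more than 6000 genes, or over 10% mitochondrial UMIs, were left out, 7155 WT, 6275 YAPKO, 8638 TAZKO and 8294 DKO cells remained, with median UMIs of 4618, 7337, 3555.5 and 5952.5. Pairs of libraries shared between 9 and 26 kept barcode sequences, at most 0.363% of the cells of the smaller library, for WT and TAZKO.

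The 30362 kept cells fell into 21 clusters. Marker genes gave most clusters a cell type, and the 10 types with at least 30 cells in every library are compared here. They are neutrophils (317, 394, 44 and 177 cells in WT, YAPKO, TAZKO and DKO), macrophages other than KCs (MACs, 115, 421, 108 and 426), KCs (680, 663, 1184 and 743), endothelial cells (ECs, 2037, 1357, 1825 and 1315), HCs (2209, 1222, 3061 and 3035), conventional dendritic cells (cDCs, 99, 216, 136 and 261), plasmacytoid dendritic cells (pDCs, 106, 199, 236 and 429), T cells, natural killer (NK) cells and B cells. Wherever 4 values stand without names, their order is WT, YAPKO, TAZKO, DKO. KCs include a cluster of dividing cells, and 1 HC cluster held 288 TAZKO cells but 9, 0 and 1 cells of WT, YAPKO and DKO. Levels are given as CPM, the UMIs of a gene or a list summed over the cells of a type in a library and divided by all UMIs of those cells, times 1000000. The types matched their names. In neutrophils 6 neutrophil markers summed to 156488, 165468, 51290 and 119103 CPM against at most 1884 in any other compared type. In KCs 6 KC markers summed to 16300.3, 17944, 16488 and 13111 CPM against at most 2356. The 8 MAC markers were less exclusive: they summed to 3153, 3189, 2832 and 1837 CPM in MACs and to 2377, 2322, 1712 and 1285 CPM in the pDC cluster, there mostly from Ly6c2.

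Levels of Yap1 and Wwtr1 in HCs served as a check of the labels. Yap1 (ENSMUSG00000053110) stood at 21.4 CPM in WT, 4.79 in YAPKO, 46.9 in TAZKO and 4.53 in DKO, lower in both libraries in which it should be deleted. Wwtr1 (ENSMUSG00000027803) stood at 5.31 CPM in WT, 13.5 in YAPKO, 3.26 in TAZKO and 2.41 in DKO, a log2 ratio to WT of -0.71 (-1.24 to -0.19) in TAZKO and -1.14 in DKO. The TAZKO decrease of Wwtr1 was below 2-fold as CPM. Over all genes with 20 UMIs in TAZKO HCs the median log2 ratio was 0.64, and relative to it the decrease is beyond 2-fold. Since 3′ tags can also come from transcripts of a recombined allele, this check is partial. With 1 library for each genotype, every comparison is between libraries, all of them share the WT library, and no test was possible. Intervals in parentheses are exact 95% limits that cover counting error only.

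Every member had a leading cell type, taken as the compared type with the highest CPM over all 4 libraries together. Neutrophils led for 5 genes: Il1b at 6473 CPM, Il1rn at 397, Csf1 at 300.2, Osm at 65.8 and Tnf at 53.4. KCs led for Il18 at 146 CPM, Il6 at 7.24 and Il10 at 2.56, ECs for Il1a at 114 and MACs for Tgfb1 at 284. For 8 of the 10 genes the same type led in each library. The exceptions were Tnf, highest in WT in cDCs, at 25.1 CPM against 22.1 in neutrophils, and Il10, highest in DKO in T cells, at 3.88 CPM (11 UMIs) against 1.55 in KCs (12 UMIs). Most of the set is therefore transcribed outside the cells in which the alleles were deleted, and HCs led for none of the 10 genes. Over all kept cells the counts ran from 129 UMIs for Il10, through 414 for Il6, 462 for Osm and 1148 for Tnf, to 30386 for Tgfb1 and 31305 for Il1b, so ratios of the first 4 are far less precise.

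**Figure D1:**
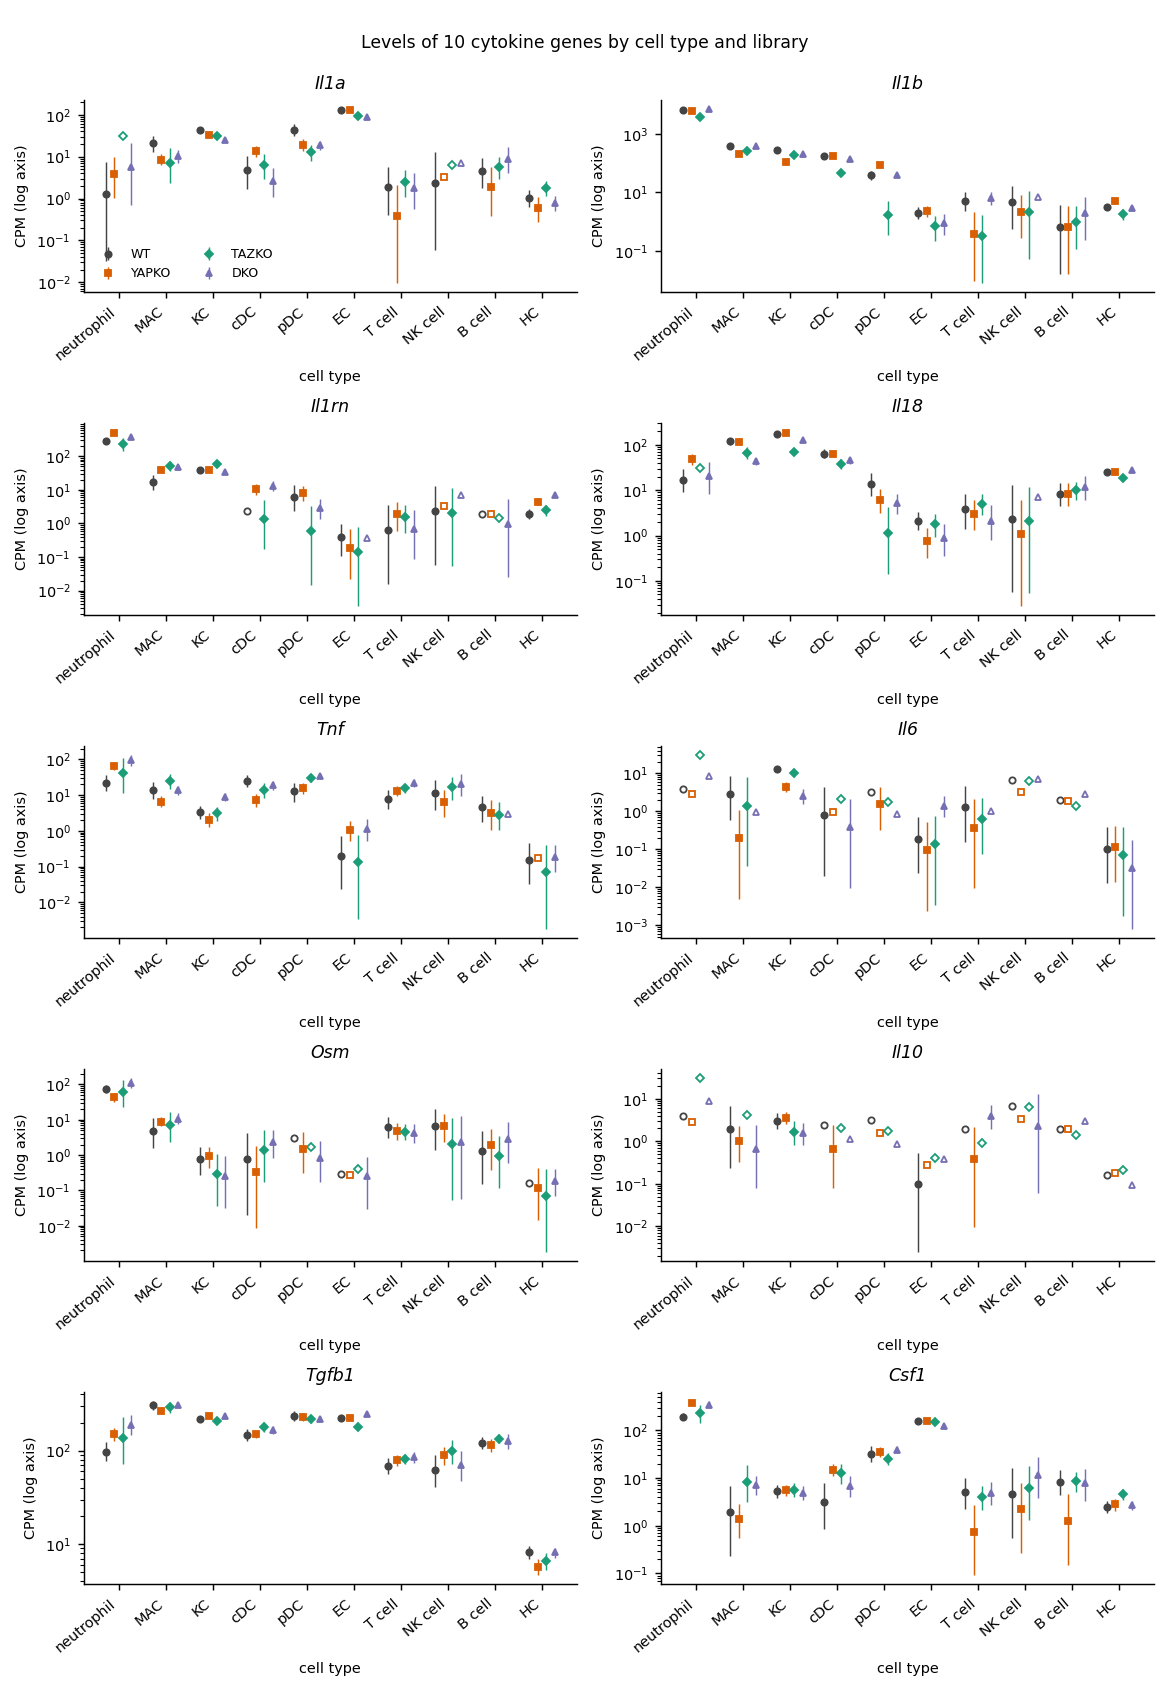
Level of each cytokine gene in CPM (log axis) in the 10 compared cell types, with 1 point for each library and bars for exact 95% counting intervals. Open symbols mark a count of 0, drawn at the level of 3 UMIs. Il1b in neutrophils lies between 3821 and 7143 CPM in all 4 libraries, and Il6 points in KCs are lower in YAPKO and DKO than in WT and TAZKO.

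A difference from WT was called when the gene had at least 20 UMIs in both libraries together, differed by at least 2-fold, and had an interval that did not reach equality. In their leading types all 10 members had enough UMIs, and 2 of 10 were called in YAPKO, 1 in TAZKO and 2 in DKO. In YAPKO, and in DKO too, these were Tnf, higher in neutrophils, and Il6, lower in KCs, and in TAZKO it was Il18, lower in KCs. By the same rule 9.20% of all genes with 20 UMIs were called in YAPKO neutrophils, 15.1% in TAZKO and 13.6% in DKO neutrophils. In KCs the background was 4.58% in YAPKO, 12.5% in TAZKO and 6.61% in DKO. It was 6.65%, 14.8% and 7.75% in MACs, and 6.46%, 9.06% and 7.91% in ECs, in the same order. The counts of members are too small to set them apart from these backgrounds, and a share near the background is not a result about the members.

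**Figure D2:**
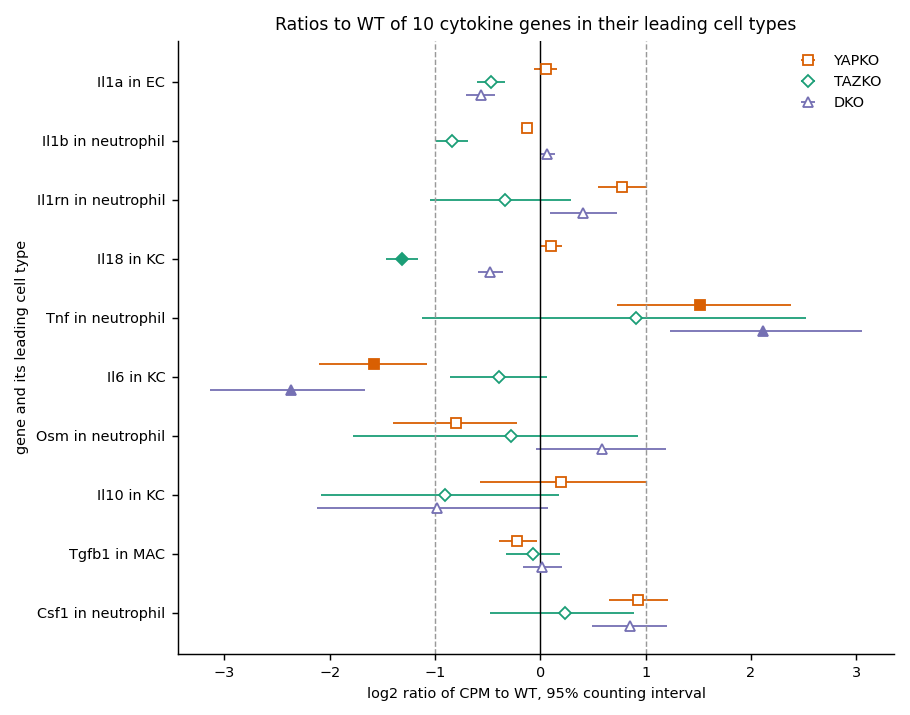
Log2 ratio of CPM to WT for each of the 10 genes in its leading cell type, with exact 95% counting intervals, 1 symbol shape for each knock-out library and filled symbols for called differences. Dashed lines mark 2-fold. Tnf in neutrophils reaches 1.52 in YAPKO and 2.12 in DKO, Il6 in KCs -1.58 and -2.36, and Il18 in TAZKO KCs -1.32.

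Total UMIs are a scale that a few abundant genes can shift. Scaling by the median ratio over genes would move every TAZKO ratio by -0.70 in neutrophils, -0.35 in MACs, -0.22 in KCs and -0.19 in ECs on the log2 scale. In DKO neutrophils the shift would be -0.31 and in YAPKO MACs 0.13, and the other shifts in these 4 types were at most 0.06 in size. The 44 TAZKO neutrophils are the weakest group throughout: their neutrophil markers summed to 51290 CPM against 156488 in WT, with S100a9 the most abundant.

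The promoters of 4 members are shown because Tnf, Il6 and Il18 carried the calls in leading types and Il1b was the member with the most UMIs. The RefSeq promoter table (GRCm38.p6) matched 8 of the 10 members, with 3 entries for Il1rn, and did not list Il10 and Osm. Each line gives the 250 bases before the annotated start, 5′ to 3′ on the gene's own strand, for Il1b from chr2:129371140-129371389 (minus strand), Tnf from chr17:35202008-35202257 (minus), Il6 from chr5:30012864-30013113 (plus) and Il18 from chr9:50554450-50554699 (plus). Capitals mark matches, on either strand, to the TATA box TATAAA, the AP-1 motif TGANTCA, the TEAD motif GGAATG, the STAT motif TTCNNNGAA, the ETS motif GAGGAA of PU.1 type, or the kappaB consensus.
Il1b: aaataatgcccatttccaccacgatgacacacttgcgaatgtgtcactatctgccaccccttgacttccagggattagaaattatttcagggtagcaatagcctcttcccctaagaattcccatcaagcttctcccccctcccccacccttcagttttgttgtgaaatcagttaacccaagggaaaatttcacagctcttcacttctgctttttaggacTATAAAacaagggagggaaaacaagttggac
Tnf: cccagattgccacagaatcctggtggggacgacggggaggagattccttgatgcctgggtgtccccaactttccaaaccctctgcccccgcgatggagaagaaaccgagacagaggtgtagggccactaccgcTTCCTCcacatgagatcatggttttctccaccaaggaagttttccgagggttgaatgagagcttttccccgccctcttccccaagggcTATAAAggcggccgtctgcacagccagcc
Il6: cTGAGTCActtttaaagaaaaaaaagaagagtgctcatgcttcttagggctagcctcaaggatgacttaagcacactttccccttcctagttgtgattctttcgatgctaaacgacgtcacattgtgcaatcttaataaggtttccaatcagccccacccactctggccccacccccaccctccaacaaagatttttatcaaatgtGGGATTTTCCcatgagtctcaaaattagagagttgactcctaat
Il18: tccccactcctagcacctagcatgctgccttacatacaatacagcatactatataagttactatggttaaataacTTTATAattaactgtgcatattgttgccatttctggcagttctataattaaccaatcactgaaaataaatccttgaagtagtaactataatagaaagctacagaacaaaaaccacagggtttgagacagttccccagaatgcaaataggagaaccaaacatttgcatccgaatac

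Il1b held TATAAA 31 to 26 bases before its start, Tnf at 29 to 24 and Il1a at 32 to 27. In Tnf GAGGAA matched on the opposite strand at 117 to 112, and in Il18 TATAAA matched on the opposite strand at 175 to 170. Il6 held TGANTCA at 249 to 243 and the kappaB consensus at 44 to 35. Of the others, Il1a also held TGANTCA and GAGGAA, Il1rn TGANTCA in its first promoter and GGAATG in the third, Csf1 the kappaB consensus and Tgfb1 none of the 6 motifs, and TTCNNNGAA was in none of the 8 genes. Among 32817 promoters of this length, 12.4% held TATAAA, 6.75% TGANTCA, 12.6% GGAATG, 7.01% TTCNNNGAA, 23.3% GAGGAA and 3.90% the kappaB consensus. TGANTCA covers its own reverse complement, so a match on one strand is also one on the other. Such matches describe letters and say nothing about binding.

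Il1b (ENSMUSG00000027398, chr2:129364570-129371139, minus strand) encodes IL-1 beta, the secreted IL-1 agonist of myeloid cells. All positions are on mm10 (GRCm38) with GENCODE M21 genes, where Il1b overlaps only the antisense gene Il1bos. In neutrophils it stood at 6819 (6636 to 7007) CPM in WT, 6241 (6090.2 to 6395) in YAPKO, 3821 (3440.3 to 4232) in TAZKO and 7143 (6863 to 7431) in DKO. TAZKO was the low library and the other 3 lay close together: the log2 ratio was -0.13 (-0.18 to -0.08) in YAPKO, -0.84 (-0.99 to -0.68) in TAZKO and 0.07 (0.00 to 0.14) in DKO, none of them called. The TAZKO value became a call of -1.54 under median-ratio scaling, of -1.07 with basophils left in the neutrophil cluster, and of -1.09 when the limits of 500 and 6000 were read as UMIs. Most neutrophils held the transcript, 97.2%, 92.6%, 97.7% and 98.3% of cells at median depths of 2247, 2187.5, 1862.5 and 1757 UMIs. In B cells, which should lack it, the share was 0.231%, 0.230%, 0.334% and 0.595% at median depths of 2944.5, 2871, 2869 and 2181.5 UMIs. With each cell of at least 1000 UMIs thinned to 1000 UMIs the expected share of neutrophils was 94.2%, 88.6%, 92.5% and 95.4%. Cells with fewer UMIs were left out of this and every other thinned share.

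Across the cell types of WT, Il1b followed the order neutrophil, MAC at 401 CPM (364 to 442), KC at 275 CPM (264 to 287), cDC at 179 CPM (156 to 204) and pDC at 38.9 CPM (27.4 to 53.7), all with separate intervals. The T cells, NK cells, HCs, ECs and B cells lay at 5.15 CPM or less and their neighbours overlapped. ECs without a UMI of the neutrophil genes S100a8 and S100a9 held 19 of the 21 Il1b UMIs of WT ECs, 11 of 24 in YAPKO, 5 of 5 in TAZKO and 7 of 7 in DKO, while 12 of the YAPKO UMIs lay in 1 cell with 5 or more UMIs of these genes. Neutrophils themselves were split, after the data were seen, by the percent of a cell's UMIs that came from S100a8 and S100a9. Il1b was highest in the middle group, of 2 to 10%, in every library, at 9028 CPM in WT, 8401 in YAPKO, 5051 in TAZKO and 9585 in DKO, and TAZKO was lowest in each of the 3 groups. The middle group held 86, 140, 20 and 48 cells, and only 5 TAZKO neutrophils were in the group of 10% and more.

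In KCs Il1b fell in YAPKO. The level was 275 (264 to 287) CPM in WT, 109 (103 to 115) in YAPKO, 193 (182 to 203) in TAZKO and 206 (196 to 216) in DKO, and YAPKO was called at -1.34 (-1.45 to -1.24). TAZKO at -0.52 and DKO at -0.42 were lower than WT by less than 2-fold. The share of KCs with a UMI was 60.6%, 49.0%, 40.6% and 59.9%, and thinned to 1000 UMIs it was 19.7%, 9.35%, 15.3% and 16.7%, with median depths of 11111, 16839, 5154.5 and 10276 UMIs. At equal depth YAPKO had the lowest share, although its KCs were the deepest. Neutrophil markers in KCs were highest in YAPKO, at 312, 1330.3, 102 and 237 CPM for the 6 genes, with S100a9 or S100a8 the most abundant. In TAZKO and DKO they were below WT, as Il1b was. KCs without a UMI of S100a8 or S100a9 held 272 CPM in WT, 110.5 in YAPKO, 193 in TAZKO and 218 in DKO in 591, 544, 1057 and 462 cells, so the YAPKO ratio there was -1.30 (-1.41 to -1.18), as large as in all KCs. Immediate early genes of cell isolation (10 genes) summed to 1245, 897, 1624 and 1352 CPM in KCs, lowest in YAPKO too, and their part in the Il1b difference was not tested.

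**Figure D3:**
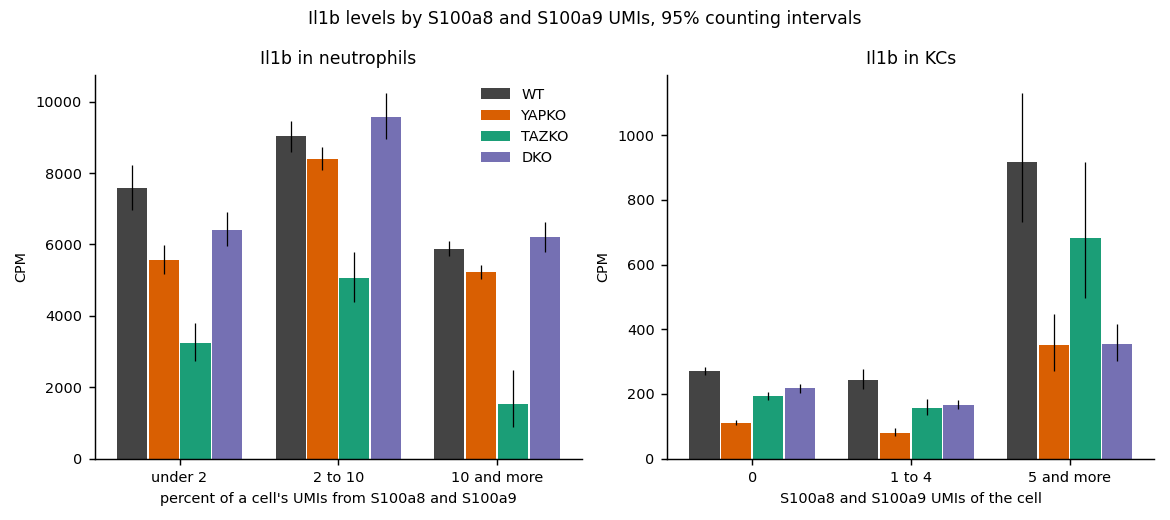
Il1b level in CPM in neutrophils, grouped by the percent of a cell's UMIs that came from S100a8 and S100a9 (left), and in KCs, grouped by the number of S100a8 and S100a9 UMIs (right), with 1 bar for each library and exact 95% counting intervals. TAZKO is the lowest bar in each neutrophil group, and YAPKO, at 110.5 CPM against 272 in WT, is the lowest among KCs with 0 such UMIs.

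In MACs Il1b stood at 401 CPM in WT, 200.2 in YAPKO, 263 in TAZKO and 392 in DKO, and YAPKO was called at -1.0 (-1.17 to -0.84), at the very edge of 2-fold. Neutrophil markers in MACs were 471, 1884, 67.6 and 136 CPM over 6 genes, of which S100a9, Retnlg and Cxcr2 were at 0 in TAZKO, and in MACs without S100a8 and S100a9 UMIs the YAPKO ratio was -0.87 (-1.04 to -0.69), under 2-fold. In cDCs the level was 179 CPM in WT, 173 in YAPKO, 48.0 in TAZKO and 135 in DKO, and only TAZKO was called, at -1.90 (-2.31 to -1.50), while DKO was lower by less than 2-fold, at -0.41 (-0.65 to -0.16). In cDCs free of S100a8 and S100a9 the ratios were -0.40 (-0.64 to -0.15) in YAPKO, -2.10 (-2.52 to -1.70) in TAZKO and -0.63 (-0.88 to -0.38) in DKO. The pDC values showed how much a few barcodes can carry. There Il1b stood at 38.9 CPM in WT, 87.9 in YAPKO, 1.74 in TAZKO and 39.2 in DKO, with calls of 1.18 in YAPKO and -4.48 (-6.82 to -2.82) in TAZKO, the latter from 3 UMIs against 37. Yet 4 YAPKO barcodes with 5 or more S100a8 and S100a9 UMIs held 110 Il1b UMIs, and in the pDCs without any the levels were 31.3 CPM in WT, 3.10 in YAPKO, 1.75 in TAZKO and 11.2 in DKO, so that YAPKO was lower than WT, at -3.34 (-5.07 to -1.94). ECs gave a call of -1.57 (-3.33 to -0.12) in TAZKO from 5 UMIs against 21.

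Il1a (ENSMUSG00000027399, chr2:129299610-129309972, minus strand) lies 54597 bases from Il1b and encodes IL-1 alpha, which is active without cleavage and can work from the nucleus or the cell surface. ECs led, with 129 (122 to 136) CPM in WT, 134 (127 to 141) in YAPKO, 93.3 (86.4 to 101) in TAZKO and 87.1 (80.8 to 93.9) in DKO. YAPKO differed from WT by 0.05 (-0.06 to 0.16), and TAZKO and DKO were lower, at -0.47 (-0.60 to -0.34) and -0.57 (-0.70 to -0.43), less than 2-fold and not called. Of ECs, 37.9%, 51.6%, 26.5% and 35.8% held a UMI at median depths of 5176, 7580, 3860 and 5651, against 0.977%, 0.188%, 0.979% and 0.522% of T cells at 4697, 4558, 4042 and 3184. The thinned share of ECs kept the order of the levels, at 11.1%, 12.2%, 8.23% and 8.21%. HC markers in ECs (7 genes, Alb most abundant) were 3958, 876, 4111 and 1057 CPM, and their part in the Il1a ratios was not tested. In the small cluster of ECs that express Vwf, Il1a was 253 CPM in WT, 93.2 in YAPKO, 164 in TAZKO and 132 in DKO, highest in WT and lowest in YAPKO.

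After ECs in WT came pDCs at 44.2 CPM (31.8 to 59.7) and KCs at 43.6 CPM (39.1 to 48.5), whose intervals overlapped, then MACs at 21.0 CPM (13.1 to 31.8) and, overlapping each other, cDCs at 4.71 and B cells at 4.54. MACs gave Il1a calls in all 3 knock-out libraries: their level was 21.0 CPM in WT, 8.56 in YAPKO, 7.04 in TAZKO and 10.4 in DKO, from 22, 43, 5 and 32 UMIs, at -1.29, -1.57 and -1.01. EC markers in MACs (8 genes, Clec4g or Kdr most abundant) summed to 318, 163, 808 and 342 CPM. Cells were therefore split, after the data were seen, by their UMIs of the 8 EC markers. MACs with 0 or 1 such UMI held 4.74 CPM in WT, 5.5 in YAPKO, 4.16 in TAZKO and 4.47 in DKO, from 3, 21, 2 and 10 UMIs, and their YAPKO ratio was 0.22 (-1.53 to 2.60), so no difference was detectable there, with only 3 UMIs in WT. MACs with 2 to 9 such UMIs held 17 of the 22 WT UMIs, at 54.3 CPM in WT, 17.5 in YAPKO, 0 in TAZKO and 26.9 in DKO, with a YAPKO ratio of -1.63 (-2.69 to -0.57). MACs with 10 and more held 19.4 CPM in WT, 20.8 in YAPKO, 24.3 in TAZKO and 25.7 in DKO, from 2, 5, 3 and 6 UMIs. The YAPKO ratio there was 0.10 (-2.51 to 3.49), and 2 WT UMIs were too few to show a difference. YAPKO was thus detectably below WT only in MACs with 2 to 9 EC-marker UMIs, and the other groups could not decide it. In the pDC cluster Il1a was 44.2 CPM in WT, 19.4 in YAPKO, 12.8 in TAZKO and 18.9 in DKO, again called in all 3 libraries, at -1.19, -1.79 and -1.23. EC markers in pDCs summed to 3822, 3742, 2414 and 3390.2 CPM. Of the Il1a UMIs, 0 fell in pDCs with 0 or 1 EC-marker UMI, in all 4 libraries, while those with 10 and more held 42, 36, 22 and 63 UMIs. Within the latter group the levels were 94.8 CPM in WT, 38.2 in YAPKO, 38.3 in TAZKO and 39.8 in DKO, and the ratios to WT were as large as in all pDCs for YAPKO and DKO, at -1.31 and -1.25, and -1.31 for TAZKO. The cDC call, 1.53 (0.28 to 3.06) in YAPKO, rested on 41 UMIs against 6, of which 40 and 6 were in cells with 10 or more EC-marker UMIs, and within those cells the ratio was 0.79 (-0.45 to 2.32), under 2-fold.

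KCs held Il1a also where EC transcripts were few. Over all KCs the level was 43.6 CPM in WT, 32.9 in YAPKO, 31.2 in TAZKO and 25.5 in DKO, with no call, and KCs with 0 or 1 EC-marker UMI still held 24.3 CPM in WT, 12.3 in YAPKO, 10.9 in TAZKO and 14.6 in DKO. WT was the highest library in each of the 3 groups of KCs. With 0 or 1 EC-marker UMI, from 17, 11, 9 and 14 Il1a UMIs, no knock-out could be told from WT. Nor could YAPKO at 2 to 9 or TAZKO at 10 and more. The level was higher in cells with 10 or more EC-marker UMIs than in those with 0 or 1 in every library. Doublets were not removed: barcodes with high doublet scores were kept, and in the pDC cluster the share of cells among the 8% of highest scores was 32.1% in WT, 24.6% in YAPKO, 14.8% in TAZKO and 15.6% in DKO.

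**Figure D4:**
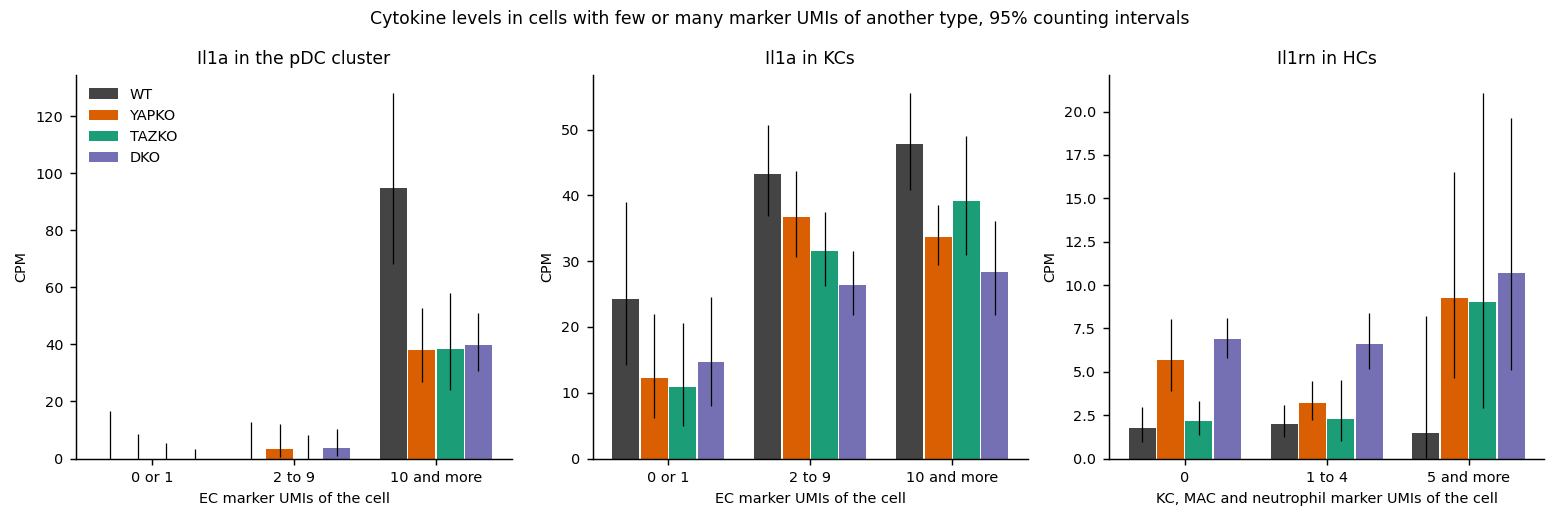
Level in CPM of Il1a in the pDC cluster and in KCs by the EC-marker UMIs of a cell, and of Il1rn in HCs by its KC, MAC and neutrophil marker UMIs, with 1 bar for each library and exact 95% counting intervals. Il1a is at 0 in pDCs with 0 or 1 EC-marker UMI but at 24.3 CPM in WT KCs of the same kind, and Il1rn in HCs without myeloid-marker UMIs is at 1.78 CPM in WT and 6.87 in DKO.

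Il1rn (ENSMUSG00000026981, chr2:24336853-24351494, plus strand) encodes the IL-1 receptor antagonist. In neutrophils its level was 289 (252 to 329.9) CPM in WT, 497 (455 to 541) in YAPKO, 228 (143 to 346) in TAZKO and 384 (321 to 455) in DKO. YAPKO and DKO were higher than WT, at 0.78 (0.55 to 1.01) and 0.41 (0.09 to 0.73), both under 2-fold, and TAZKO, with 22 UMIs, could not be told from WT, although median-ratio scaling made it a call of -1.04. Over the 13 alternatives with a value YAPKO lay between 0.36 and 0.95 and DKO between -0.03 and 0.49. Grouped by their share of S100a8 and S100a9 UMIs, neutrophils of YAPKO were higher than WT in each group. With under 2% their intervals overlapped, at 466 (356 to 600) CPM in YAPKO and 374 (248 to 540) in WT. DKO was not higher in each group: with 2 to 10% it held 417 (293 to 574) CPM against 509 (412 to 622) in WT. With under 2% DKO held 488 against 374 and with 10% and more 281 against 194. The DKO and WT intervals overlapped in every group. The part of the group sizes was not tested. After neutrophils in WT came KCs at 38.1 CPM (33.9 to 42.7) and MACs at 17.2 CPM (10.2 to 27.1), with pDCs at 6.31 and HCs at 1.89 further down. In MACs Il1rn was 17.2 CPM in WT, 38.4 in YAPKO, 52.1 in TAZKO and 47.7 in DKO, higher than WT in all 3 knock-out libraries at 1.16 (0.46 to 1.95), 1.60 (0.75 to 2.50) and 1.47 (0.76 to 2.27). WT was low in this comparison, but few cells carried the counts: of 18, 193, 37 and 146 UMIs, the 5 cells with the most held 15, 82, 25 and 59. MACs without S100a8 and S100a9 UMIs held 17.4 CPM in WT, 34.1 in YAPKO, 54.6 in TAZKO and 48.4 in DKO, and the YAPKO ratio there, 0.97 (0.22 to 1.82), was just under 2-fold. In cDCs no Il1rn UMI was seen in WT, and 31, 2 and 35 in YAPKO, TAZKO and DKO, with exact lower limits of the log2 ratio at 1.74 in YAPKO and 2.13 in DKO and up to 11 and 14 UMIs in 1 cell. Neutrophil markers in cDCs (6 genes, S100a9 at 0 in TAZKO) were also highest in YAPKO and DKO, at 11, 214, 9.75 and 39.7 CPM, and in MACs heat shock genes (5 genes) were highest in WT, at 1380.3, 399, 955 and 648 CPM. Their part in the Il1rn and Il1a differences of these types was not tested. KCs held 38.1 CPM in WT, 38.7 in YAPKO, 59.1 in TAZKO and 33.2 in DKO, highest in TAZKO at 0.63 (0.41 to 0.85), without a call.

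HCs, in which the knock-outs delete the alleles, also held Il1rn. Their level was 1.89 (1.33 to 2.62) CPM in WT, 4.44 (3.5 to 5.56) in YAPKO, 2.48 (1.73 to 3.45) in TAZKO and 6.90 (6.02 to 7.88) in DKO, from 36, 76, 35 and 218 UMIs. YAPKO and DKO, the libraries labelled as lacking YAP, were both called higher, at 1.23 (0.64 to 1.84) and 1.87 (1.35 to 2.42), and TAZKO overlapped with WT. The libraries differed in their mix of HC clusters. A shallow cluster (median 2229 UMIs) held 1824, 629, 1713 and 1957 cells, and a deeper cluster (median 7770) 376, 593, 1060 and 1077. The part of this mix in the Il1rn ratios was not tested. Over all genes with 20 UMIs in HCs the median log2 ratio was 0.43 in YAPKO, 0.64 in TAZKO and 0.46 in DKO, so that relative to the median the YAPKO value is under 2-fold and the DKO value above it. A UMI was seen in 1.49%, 4.99%, 1.01% and 5.70% of HCs, at median depths of 2143, 5911.5, 1834 and 6125 UMIs, so depth moved with the share, while the thinned share was 0.22%, 0.646%, 0.260% and 0.751%. For comparison, 0.196%, 0.147%, 0.0548% and 0% of ECs held a UMI, at the median depths given above. KC markers in HCs were 54.4, 74.5, 75.6 and 45.9 CPM (6 genes) and neutrophil markers 26.5, 36.3, 8.99 and 19.8 CPM (6 genes). HCs without a UMI of the 20 KC, MAC and neutrophil marker genes held 1.78 CPM in WT, 5.69 in YAPKO, 2.18 in TAZKO and 6.87 in DKO, from 14, 32, 22 and 139 UMIs in 1431, 695, 2516 and 2243 cells, with ratios of 1.68 (0.73 to 2.70) in YAPKO and 1.95 (1.16 to 2.86) in DKO. HCs with 1 to 4 such UMIs, from 21, 33, 8 and 69 UMIs, gave 0.67 (-0.16 to 1.54) in YAPKO, which could not be told from WT, and 1.72 in DKO. BEC markers in HCs (6 genes, Tm4sf4 most abundant) did move with Il1rn, at 109, 228, 158 and 408 CPM, with Krt7 at 0 in TAZKO and Krt19 at 0 in DKO, and their part in the result was not tested. BECs, of which there were 54, 32, 28 and 7, held 4, 27, 4 and 5 Il1rn UMIs.

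The balance of antagonist to agonist transcripts can be read as Il1rn UMIs per 100 Il1b UMIs in the same cells, which compares 2 genes with different 3′ ends and so only between libraries. In neutrophils it was 4.24 (3.69 to 4.85) in WT, 7.96 (7.26 to 8.70) in YAPKO, 5.98 (3.70 to 9.19) in TAZKO and 5.38 (4.48 to 6.41) in DKO, highest in YAPKO. In MACs it was 4.28 (2.51 to 6.84) in WT, 19.2 (16.4 to 22.4) in YAPKO, 19.8 (13.5 to 28.3) in TAZKO and 12.2 (10.2 to 14.4) in DKO, lowest in WT, with separate intervals from all 3 knock-outs. In KCs it was 13.8 (12.2 to 15.6) in WT, 35.6 (31.8 to 39.9) in YAPKO, 30.7 (27.4 to 34.4) in TAZKO and 16.1 (14.1 to 18.4) in DKO, with YAPKO and TAZKO well above WT and DKO, whose intervals overlapped. The YAPKO value in KCs came from less Il1b and the TAZKO value from both less Il1b and more Il1rn, as the levels above give. In pDCs it was 16.2 (5.59 to 38.8) in WT, 9.30 (5.20 to 15.5) in YAPKO and 7.30 (3.42 to 13.8) in DKO, highest in WT with overlapping intervals, and 110 of the 172 Il1b UMIs of YAPKO came from 4 barcodes with 5 or more S100a8 and S100a9 UMIs. TAZKO pDCs, with 1 Il1rn and 3 Il1b UMIs, were given no value. In cDCs it was 0 (0 to 1.63) in WT, 5.93 (3.99 to 8.52) in YAPKO, 2.90 (0.344 to 10.9) in TAZKO and 9.92 (6.80 to 14.1) in DKO, lowest in WT, whose interval overlapped with that of TAZKO. In HCs it was 59.0 (38.0 to 90.5) in WT, 86.4 (62.7 to 119) in YAPKO, 140 (81.4 to 244) in TAZKO and 242 (189 to 313) in DKO. WT was lowest, but its interval overlapped with those of YAPKO and TAZKO. Of the 61, 88, 25 and 90 Il1b UMIs of HCs, 26, 52, 12 and 21 lay in cells with 5 or more S100a8 and S100a9 UMIs.

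Il18 (ENSMUSG00000039217, chr9:50554827-50581840, plus strand, with Bco2 and Tex12 overlapping on the opposite strand) encodes IL-18, which drives interferon gamma in T and NK cells. KCs led, with 174 (165 to 184) CPM in WT, 187 (179 to 195) in YAPKO, 70.0 (63.8 to 76.6) in TAZKO and 125 (118 to 133) in DKO. TAZKO was the low library, called at -1.32 (-1.47 to -1.16), DKO was intermediate at -0.47 (-0.59 to -0.35) and YAPKO was close to WT at 0.10 (0.00 to 0.20). The TAZKO ratio lay between -1.54 and -1.14 under 15 other processing choices, and DKO became a call of -1.04 when the limits of 500 and 6000 were read as UMIs. A UMI was seen in 66.5%, 76.2%, 27.5% and 58.5% of KCs and 3.01%, 2.76%, 3.34% and 3.57% of B cells, and the thinned share of KCs was 14.2%, 15.8%, 6.15% and 11%, again lowest in TAZKO. TAZKO KCs were also the shallowest, as the medians above give, and held the most HC markers, 2338, 734, 3648 and 1823 CPM (7 genes, Alb most abundant), and EC markers, 829, 831, 1167 and 829.5 CPM (8 genes, Cdh5 most abundant), whereas their own 6 KC markers were 16300.3, 17944, 16488 and 13111 CPM, with no marker at 0. The part of depth and of these markers in the Il18 difference was not tested. Both KC clusters showed it: the larger held 173 CPM in WT, 201 in YAPKO, 74.4 in TAZKO and 137 in DKO, and the dividing cluster 176 CPM in WT, 148 in YAPKO, 48.9 in TAZKO and 81.1 in DKO.

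Behind KCs in WT, Il18 came next in MACs at 122 CPM (102 to 145), cDCs at 63.6 CPM (50.5 to 79.0) and HCs at 25.1 CPM (22.9 to 27.4), each apart from the next, then neutrophils at 16.9 and pDCs at 13.7, which overlapped with each other, neutrophils also with HCs. In MACs the level was 122 CPM in WT, 113 in YAPKO, 66.2 in TAZKO and 43.8 in DKO, with DKO called lower at -1.48 (-1.84 to -1.12) and TAZKO under 2-fold at -0.88. The markers of MACs themselves were lowest in DKO, 3153, 3189, 2832 and 1837 CPM, as were KC markers in MACs, 2356, 1055, 1431 and 938 CPM (6 genes, Cd5l most abundant in WT, YAPKO and DKO, Marco at 0 in WT), and their part was not tested. HCs, which are known to make IL-18, held 25.1 CPM in WT, 25.1 in YAPKO, 18.8 in TAZKO and 27.6 in DKO, and TAZKO was lowest there too, at -0.41 (-0.64 to -0.19), without a call. Further calls came from small counts. Neutrophils held 13, 50, 0 and 7 UMIs, with YAPKO at 1.5 (0.60 to 2.51), where MAC markers (8 genes, Ly6c2 most abundant, F13a1 at 0) were also highest, at 69.1, 302, 125 and 105 CPM, and their part was not tested. ECs of YAPKO held 8 UMIs against 22, at -1.50 (-2.87 to -0.27), and pDCs of DKO were called at -1.41 (-2.52 to -0.26). TAZKO pDCs held 2 Il18 UMIs against 13 in WT.

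Tnf (ENSMUSG00000024401, chr17:35199381-35202007, minus strand) encodes TNF, the trigger of NF-kB signalling and of cell death through its receptors. In neutrophils it stood at 22.1 (12.9 to 35.5) CPM in WT, 63.4 (49.0 to 80.7) in YAPKO, 41.5 (11.3 to 106) in TAZKO and 96.0 (66.1 to 135) in DKO, from 17, 66, 4 and 33 UMIs. YAPKO and DKO were both called higher than WT, at 1.52 (0.73 to 2.38) and 2.12 (1.23 to 3.05), and the 4 UMIs of TAZKO left its ratio anywhere within -1.12 to 2.52. With clusters that carry markers of 2 lineages counted, the YAPKO ratio was 0.89 and no longer called, and the DKO ratio was 1.17, still a call. Over the 13 alternatives with a value YAPKO lay between 0.89 and 1.87 and DKO between 1.17 and 2.27. The share of neutrophils with a UMI was 4.42%, 9.39%, 6.82% and 11.3%, against 0.136%, 0%, 0.0327% and 0.198% of HCs, at 2143, 5911.5, 1834 and 6125 median UMIs, and thinned to 1000 UMIs the share of neutrophils was 2.0%, 5.34%, 4.77% and 7.47%. Neutrophils were again grouped by their share of S100a8 and S100a9 UMIs. Cells with under 2% held 13.4 (0.338 to 74.4) CPM in WT, 46.6 in YAPKO and 159.6 (94.6 to 252) in DKO. Cells with 2 to 10% held 42.4 (18.3 to 83.6), 132 (94.9 to 178) and 101 (46.4 to 192), and cells with 10% and more 15.9 (6.85 to 31.3), 30.3 (18.0 to 47.9) and 42.2 (15.5 to 91.9). Of these 3 libraries WT was lowest in each group, with wide and partly overlapping intervals. HC markers in neutrophils (7 genes, Alb most abundant) were 11054, 3953, 10663 and 4795 CPM and heat shock genes (5 genes, Hsp90aa1 most abundant) 354, 142, 291 and 183 CPM, Hspa1a being at 0 in YAPKO and TAZKO. Both were highest in WT, and their part in the Tnf difference was not tested.

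In WT, the Tnf level of cDCs, 25.1 CPM (17.2 to 35.5), overlapped with that of neutrophils, followed with overlapping intervals by MACs at 14.3, pDCs at 12.6, NK cells at 11.5 and T cells at 7.73, while KCs had only 3.32. In KCs the levels were 3.32 CPM in WT, 2.03 in YAPKO, 3.12 in TAZKO and 9.01 in DKO, with DKO called higher at 1.44 (0.77 to 2.15) from 70 UMIs in 40 cells against 26 in 22, and KCs without S100a8 and S100a9 UMIs gave 1.65 (0.91 to 2.44). T cells held 7.73 CPM in WT, 13.2 in YAPKO, 15.5 in TAZKO and 22.2 in DKO, called in TAZKO at 1.01 (0.08 to 2.05) and in DKO at 1.52 (0.62 to 2.55). Immediate early genes in T cells (10 genes, Btg2 most abundant in WT) ran in the same order, at 573, 771, 792 and 945 CPM, and their part was not tested. Over all genes with 20 UMIs in T cells the median log2 ratio was 0.245 in TAZKO and 0.155 in DKO. Relative to the median the TAZKO value of Tnf is under 2-fold and the DKO value above it. DKO was thus the highest library in neutrophils, KCs and T cells, and it was highest in pDCs as well. The pDC levels were 12.6 CPM in WT, 15.8 in YAPKO, 30.2 in TAZKO and 33.2 in DKO, called in TAZKO at 1.26 and DKO at 1.39, where the 5 cells with the most UMIs held 20 of 52 and 43 of 116. YAPKO stood out in the other direction in cDCs and MACs. There Tnf was 25.1 CPM in WT, 7.29 in YAPKO, 13.9 in TAZKO and 18.7 in DKO in cDCs and 14.3 CPM in WT, 6.57 in YAPKO, 25.3 in TAZKO and 13.7 in DKO in MACs, with YAPKO at -1.78 (-2.64 to -0.96) and -1.12 (-2.04 to -0.14), and MACs free of S100a8 and S100a9 gave -1.32 (-2.29 to -0.30). The median-ratio shift of YAPKO MACs, 0.13, would bring the Tnf ratio of -1.12 over all MACs just under 2-fold. Heat shock genes in cDCs were also highest in WT, at 2241, 454, 1052 and 707 CPM, and their part was not tested.

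Il6 (ENSMUSG00000025746, chr5:30013114-30019981, plus strand) encodes IL-6, which through STAT3 makes HCs secrete acute phase proteins and helps them to divide after injury. KCs led, with 13.3 (10.8 to 16.1) CPM in WT, 4.44 (3.27 to 5.88) in YAPKO, 10.1 (7.84 to 12.8) in TAZKO and 2.58 (1.57 to 3.98) in DKO. WT and TAZKO were high and YAPKO and DKO low: -1.58 (-2.10 to -1.07) in YAPKO and -2.36 (-3.13 to -1.66) in DKO, both called, against -0.39 (-0.86 to 0.06) in TAZKO. These ratios rest on 104, 48, 68 and 20 UMIs in 72, 39, 57 and 17 KCs. The share of KCs with a UMI was 10.6%, 5.88%, 4.81% and 2.29%, and thinned 1.27%, 0.416%, 1.01% and 0.238%, while neutrophils and B cells held 0 Il6 UMIs in every library. The level of 3 UMIs was 3.91, 2.88, 31.1 and 8.73 CPM in neutrophils and 1.95, 1.90, 1.43 and 2.92 CPM in B cells, so for neutrophils of TAZKO and DKO and B cells of DKO the 0 does not show a level below that of KCs. Over the other processing choices the YAPKO ratio lay between -1.84 and -1.23 and the DKO ratio between -2.64 and -2.10. Reading the limits of 500 and 6000 as UMIs gave -1.66 in YAPKO without a call and left DKO without a value, from 268, 153, 884 and 298 KCs.

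Heat shock genes in KCs parted the libraries in the same way as Il6, at 1153, 632, 823 and 650.5 CPM (5 genes, Hsp90aa1 most abundant, none at 0), with WT and TAZKO high. The HC markers of KCs, given with Il18, were also higher in WT and TAZKO than in YAPKO and DKO. Their part in the Il6 difference was not tested. Dividing KCs held 18.5 CPM in WT, 4.30 in YAPKO, 12 in TAZKO and 3.05 in DKO and the larger KC cluster 10.5 CPM in WT, 4.48 in YAPKO, 9.70 in TAZKO and 2.45 in DKO, so both clusters had the same pair of low libraries. In the other compared types Il6 was scarce, with MACs of WT at 2.86 CPM and T cells at 1.29, and 11 UMIs of DKO ECs lay in 3 cells. The 25 basophils, too few to compare, held 6, 61, 6 and 5 Il6 UMIs, or 844 CPM over the 4 libraries together, with 54 of the UMIs in 1 YAPKO cell.

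Osm (ENSMUSG00000058755, chr11:4236420-4241026, plus strand) encodes oncostatin M, a relative of IL-6 that myeloid cells release and that acts on HCs and ECs. In neutrophils it stood at 75.6 (57.4 to 97.7) CPM in WT, 43.2 (31.5 to 57.8) in YAPKO, 62.3 (22.9 to 136) in TAZKO and 113 (80.7 to 155) in DKO. YAPKO was lower, at -0.81 (-1.40 to -0.22), and DKO higher, at 0.59 (-0.04 to 1.20), and neither was called. With clusters that carry markers of 2 lineages counted, YAPKO became a call of -1.08. In WT neutrophils with under 2% of UMIs from S100a8 and S100a9 Osm was at 0 (upper limit 49.3 CPM). With 2 to 10% it was at 42.4 CPM and with 10% and more at 99.2, and YAPKO had the same order, with 0, 31.4 and 59.0. In DKO the same groups held 35.5, 158 and 148 CPM, not in that order. Intervals of neighbouring groups overlapped in each of these libraries. NK cells at 6.89 CPM, T cells at 6.44 and MACs at 4.77 followed in WT with overlapping intervals, and MACs reached 8.95 in YAPKO and 10.8 in DKO.

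Il10 (ENSMUSG00000016529, chr1:131019845-131024974, plus strand) encodes IL-10, which curbs cytokine production by macrophages, and it was the scarcest of the 10 genes. In KCs it stood at 3.06 (1.96 to 4.55) CPM in WT, 3.51 (2.49 to 4.82) in YAPKO, 1.63 (0.816 to 2.92) in TAZKO and 1.55 (0.799 to 2.70) in DKO, from 24, 38, 11 and 12 UMIs. TAZKO and DKO were lower, at -0.91 (-2.08 to 0.18) and -0.99 (-2.12 to 0.07), but at this depth neither differed from WT detectably. Other choices made calls of both: TAZKO was -1.13 under median-ratio scaling, and DKO was -1.11 in cells with at least 2000 UMIs and -1.08 with barcodes of at least 200 genes kept. Other choices brought both close to WT: over the 15 alternatives with a value TAZKO lay between -1.13 and -0.17 and DKO between -1.11 and -0.15, the latter with every cell weighed the same. The YAPKO ratio ranged from 0.08 to 2.51, the highest with the limits of 500 and 6000 read as UMIs. Outside KCs, WT MACs held 1.91 CPM, and 11 DKO T-cell UMIs came from 5 cells.

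Tgfb1 (ENSMUSG00000002603, chr7:25687002-25705077, plus strand) encodes transforming growth factor beta 1, which is stored in a latent form and, once freed, limits T cells and drives fibrosis. It was detected in all 10 compared types. In MACs it stood at 306 (273 to 341) CPM in WT, 263 (249 to 278) in YAPKO, 292 (253 to 334) in TAZKO and 309.5 (290.1 to 329.9) in DKO, in ECs at 225 CPM in WT, 225 in YAPKO, 179 in TAZKO and 248 in DKO and in KCs at 220.1 CPM in WT, 235 in YAPKO, 207 in TAZKO and 236 in DKO. No ratio in these 3 types passed 2-fold: MACs of YAPKO gave -0.22 (-0.39 to -0.04) and ECs of TAZKO -0.33 (-0.43 to -0.23), and MACs of TAZKO and DKO gave -0.07 and 0.02. Behind MACs in WT, pDCs at 236 CPM (206 to 269), ECs at 225 CPM (216 to 234) and KCs at 220.1 CPM (209.9 to 231) overlapped, followed by cDCs at 148, then B cells at 119.95, neutrophils at 97.7, T cells at 68.2 and NK cells at 62.0, with HCs last at 8.20. Neutrophils held 97.7 CPM in WT, 149.9 in YAPKO, 135 in TAZKO and 189 in DKO: WT was lowest, and DKO came nearest to 2-fold at 0.95 (0.45 to 1.45), without a call. WT was also the lowest library in cDCs, T cells and NK cells, with no call there. YAPKO was close to WT in cDCs, and the DKO ratio in NK cells was 0.18, from 30 UMIs against 27.

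Csf1 (ENSMUSG00000014599, chr3:107741048-107760469, minus strand) encodes the growth factor on which KCs and other macrophages depend. Neutrophils led, with 194 (164 to 228) CPM in WT, 369 (333 to 408) in YAPKO, 228 (143 to 346) in TAZKO and 349 (289 to 417) in DKO. YAPKO and DKO were higher than WT but under 2-fold, at 0.93 (0.65 to 1.21) and 0.85 (0.49 to 1.20), and reading the limits of 500 and 6000 as UMIs turned YAPKO into a call of 1.02. In WT, ECs followed at 160.1 CPM (152 to 168), which overlapped with neutrophils. EC levels were 160.1 CPM in WT, 158 in YAPKO, 151 in TAZKO and 123 in DKO, with DKO lowest at -0.39 (-0.50 to -0.27). ECs held more of the Csf1 UMIs than neutrophils in every library, being far more numerous. In neutrophils Csf1 was lowest where S100a8 and S100a9 took 10% and more of UMIs, at 97.2 CPM in WT, 228 in YAPKO and 162 in DKO, against 377, 618 and 698 at 2 to 10%. Under 2% the levels were 387, 404 and 310.4 CPM with overlapping intervals, so YAPKO and DKO were not detectably higher than WT there. The group of 10% and more made up 63.4% of neutrophils in WT, 51.5% in YAPKO and 39.0% in DKO, and the part of this in the Csf1 ratios was not tested. In the compared types Csf1 was called only in cDCs, at 3.14 CPM in WT, 14.9 in YAPKO, 12.5 in TAZKO and 6.87 in DKO from 4, 45, 18 and 18 UMIs, with YAPKO at 2.25 (0.79 to 4.18) and TAZKO at 2.0 (0.39 to 4.02). EC markers in cDCs (8 genes, Clec4g or Ptprb most abundant) were 441, 1208, 929 and 571 CPM, and cells with 10 or more of their UMIs held 4, 37, 17 and 11 of the Csf1 UMIs, so the result rested mostly on those cells. Within them the ratios were 1.27 (-0.21 to 3.22) in YAPKO and 1.14 (-0.47 to 3.17) in TAZKO, and neither could be told from WT.

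Calls in the other cell types are given beside the share among all genes with 20 UMIs. In cDCs 4 of 7 members with 20 UMIs were called in YAPKO, 2 of 5 in TAZKO and 1 of 6 in DKO, against 8.91%, 13.9% and 8.63% of all genes. In pDCs 2 of 7, 3 of 5 and 3 of 6 were called, against 3.39%, 9.04% and 5.38%. The splits above show that part of these calls lay in cells with markers of ECs or neutrophils. T cells gave 0 of 3, 1 of 5 and 1 of 5 against 5.62%, 14.9% and 7.33%, and B cells 0 of 2, 0 of 3 and 0 of 3 against 6.15%, 14.9% and 7.50%. In HCs 1 of 6 was called in YAPKO, 0 of 6 in TAZKO and 1 of 6 in DKO, against 10.2%, 26.9% and 17.6%, and both calls were Il1rn. For the types with leading genes, neutrophils gave 2 of 7, 0 of 6 and 1 of 7 against 9.20%, 15.1% and 13.6%, and MACs 4 of 7, 2 of 6 and 3 of 8 against 6.65%, 14.8% and 7.75%. KCs gave 2 of 9, 1 of 9 and 2 of 9 against 4.58%, 12.5% and 6.61%, and ECs 1 of 5, 1 of 5 and 0 of 5 against 6.46%, 9.06% and 7.91%. Members with 20 UMIs are not all members, since a gene can reach that count through the library in which it is high. The median log2 ratio of those members in neutrophils was 0.78, -0.02 and 0.59, against 0.09, 0.30 and 0.23 for all genes, and in KCs 0.02, -0.39 and -0.42 against -0.03, 0.23 and 0.03. In MACs it was -0.22, -0.34 and -0.01 against -0.04, 0.23 and 0.07. No count is given for NK cells, where Tgfb1 alone reached 20 UMIs.

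How much of a cytokine's RNA each cell type held depended on cell numbers as well as levels, and so on how cells were mixed. Of Il1b UMIs, neutrophils held 55.0%, 54.0%, 16.0% and 32.9%, and KCs 22.7%, 9.77%, 56.4% and 21.4%, so that in TAZKO, with 44 neutrophils, KCs were the main holders. ECs held 55.5%, 54.2%, 56.7% and 48.0% of Il1a and 58.6%, 49.2%, 59.7% and 42.9% of Csf1. HCs held a sizeable part of Il18 in every library and of Il1rn in DKO. Their shares were 19.0%, 11.3%, 26.8% and 35.8% of Il18 and 4.49%, 4.87%, 5.78% and 21.0% of Il1rn, most in DKO for both. KCs held 74.3%, 35.6%, 70.8% and 46.5% of Il6, and basophils held 45.2% in YAPKO. Tnf was spread over many types, with pDCs at 7.50%, 9.63%, 25.4% and 25.2% and cDCs at 20%, 6.83%, 9.76% and 10.6%.

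**Figure D5:**
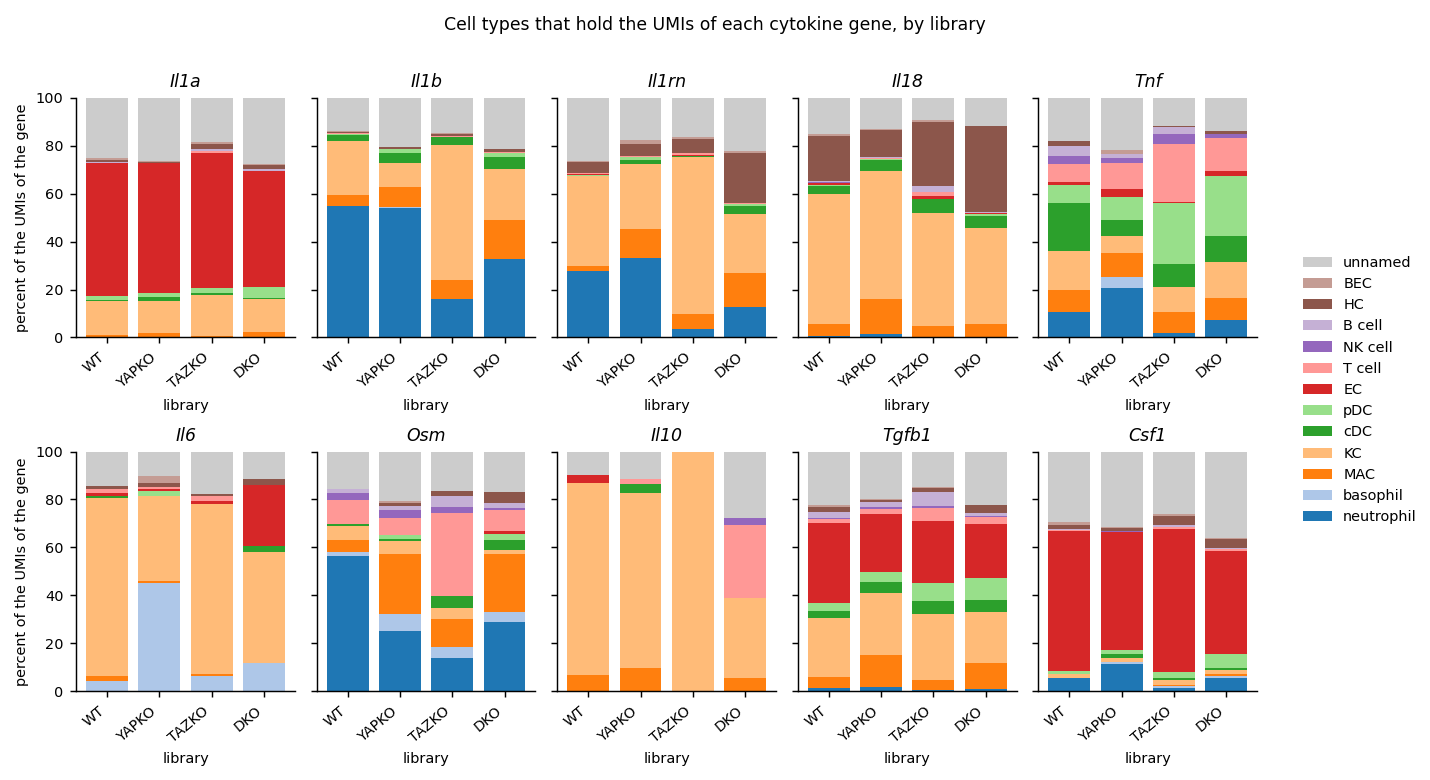
Percent of the UMIs of each cytokine gene in a library (y axis) that each cell type held, with 1 stacked bar for each library and unnamed cells in grey. Neutrophils hold 55.0% of Il1b UMIs in WT and 16.0% in TAZKO, and HCs hold 4.49% of Il1rn UMIs in WT and 21.0% in DKO.

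Genes around the cytokines were followed as fixed lists in the 4 leading types, counted by the same call rule, for which the shares among all genes are those given with the leading types. Among 18 receptors and decoys, neutrophils of YAPKO had 1 of 14 higher (Il10ra, from 14.3 to 49.0 CPM) and none lower, those of TAZKO 3 of 11 higher (Tnfrsf1b, Lifr and Csf1r) and 2 lower (Il1r2 and Il18rap), and those of DKO 2 of 12 higher (Il10ra and Tgfbr1, the latter from 40.4 to 154 CPM). KCs of TAZKO had 5 of 17 higher (Il1rap, Il6ra, Il10ra, Il18r1 and Tnfrsf1b), among them the IL-6 receptor gene Il6ra from 115 to 237 CPM, while YAPKO had Il18r1 higher and Osmr lower of 17 and DKO none of 16. The IL-18 binding protein gene Il18bp, a decoy for IL-18, was not called in KCs, where it stood at 555 CPM in WT and 667 in TAZKO. MACs had 0 higher and 1 of 13 lower in YAPKO (Tgfbr3), 1 of 13 higher in TAZKO (Il6st) and 0 of 13 in DKO, and ECs had Il1r2 higher of 14 in YAPKO, Il1rap, Il6ra and Csf1r higher of 13 in TAZKO, and 0 of 13 in DKO. The median-ratio shift of TAZKO KCs, given above, is large enough to take Il6ra, at 1.04 on the log2 scale, below 2-fold.

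The second list holds 15 genes that mature IL-1, IL-18 or TGF-beta, such as caspases and latency proteins. KCs had 0 of 12 in YAPKO and DKO and 1 of 12 in TAZKO, Casp4, higher from 7.14 to 24.4 CPM. Neutrophils had 0 higher and Aim2 lower of 9 in YAPKO, Adam17 higher of 7 in TAZKO and Casp4 lower of 7 in DKO. MACs had 0 of 11, 2 of 10 (Casp4 and Nlrc4, higher) and 0 of 11, and ECs 0 of 11, 0 of 11 and, in DKO, Ltbp1 higher and Lrrc32 lower of 11, Lrrc32 from 163 to 47.6 CPM. A list of 12 feedback and target genes of NF-kB, STAT3 and SMAD reads how cells respond to such cytokines. In neutrophils 3 of 11 were higher in YAPKO (Tnfaip3, Socs1 and Smad7), 2 of 10 higher (Il4ra and Smad7) and 2 lower (Nfkbia and Socs3) in TAZKO, and 3 of 10 higher (Ptgs2, Il4ra and Smad7) in DKO. Ptgs2 went from 242 to 655 CPM in DKO and Nfkbia from 757 to 332 in TAZKO. KCs had 0 of 10 in YAPKO and 2 of 10 higher (Nfkbiz and Tnfaip3) in TAZKO, and ECs Socs3 higher of 10 in YAPKO and 0 of 10 in TAZKO and DKO. MACs had Nfkbiz lower of 11 in YAPKO, and Tnfaip3 and Socs1 higher and Socs3 lower of 10 in TAZKO.

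Of 31 other cytokine genes 30 were in the feature tables, and few reached 20 UMIs in any comparison. Neutrophils had 0 of 5 called in each comparison, MACs Tnfsf13b and Ltb lower of 8 in YAPKO, 0 of 5 in TAZKO and Ltb lower of 8 in DKO. KCs had Tgfb2 lower in all 3 comparisons, of 10, 10 and 9 genes, from 20 UMIs in WT to 1, 2 and 3, and Il27 and Ifng higher in TAZKO. ECs had Il33, an IL-1 family alarmin, higher in YAPKO, from 11.1 to 41.4 CPM, of 5 genes, and 0 of 4 and 0 of 5 in TAZKO and DKO. Lists of cell stress gave the state of the cells in which cytokines were read. Of 10 immediate early genes, none was higher in ECs, and 5 were lower in YAPKO (Fos, Fosb, Egr1, Dusp1 and Zfp36), 6 in TAZKO (Fos, Fosb, Junb, Egr1, Ier2 and Zfp36), and 4 in DKO (Fos, Fosb, Egr1 and Dusp1). Neutrophils had Atf3 lower in all 3 comparisons and Fosb and Egr1 higher in DKO. KCs had Egr1 lower in YAPKO, Fosb and Junb higher in TAZKO, and Fosb higher and Dusp1 lower in DKO. MACs had Egr1 lower in YAPKO and Fosb higher in DKO. Of 5 heat shock genes, Hspa1a and Hspa1b were lower in all 3 comparisons in neutrophils and ECs, with Hsph1 higher in ECs of TAZKO. In KCs and MACs both were lower in YAPKO and DKO, and Hspa1a alone in TAZKO. In the 4 leading types WT thus had the highest sum of heat shock genes of the 4 libraries.

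Genes with the pattern most like each cytokine were sought among 14705 genes over 42 pools, each pool being 1 cell type in 1 library. Il1b was closest to F630028O10Rik (Pearson r 0.975), Nlrp3 (0.966) and 1600010M07Rik (0.965). Il1a came closest to Lbx2 (0.955), Cracr2b (0.952) and Myo7a (0.95), and Il1rn to Cd14 (0.936), C5ar1 (0.934) and Csf3r (0.933). For Il18 the values were lower, with Tmem141 (0.876), Tnfrsf11a (0.848) and Tnfrsf21 (0.848). Tnf was nearest to Glipr1 (0.858), Samsn1 (0.835) and Selplg (0.822), and Il6 to Slc1a2 (0.858), Ccdc148 (0.838) and Sectm1a (0.832). Osm had Tarm1, Acta2 and Crispld2 at 0.942 each, Tgfb1 had Wasf2 (0.936), Gnai2 (0.918) and Pitpna (0.914), and Csf1 had Igf1r (0.95), Hdc (0.937) and Ppp1r2 (0.935). Il10 had under 200 UMIs and was not matched. These values are descriptions, because pools share libraries and depth and differ mostly by cell type.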

How the data were processed

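The authors deposited raw UMI counts per gene and barcode, made with Cell Ranger (6.0.1 in the labels, 4.0.0 in the file headers) on mm10 with GENCODE M21 genes. From these counts, 2000 variable genes and 20 principal components of log-normalised values, with the 10 members and the genes of 4 fixed lists (not immediate early or heat shock genes) kept out of the variable genes and cell cycle scores regressed out, aligned between libraries with a re-implementation of the Harmony algorithm, gave a graph of 20 neighbours, with clusters at resolution 0.4 and seed 1 (Python 3.11.15, scanpy 1.11.5, igraph 0.11.9, scikit-learn 1.9.0, numpy 2.4.6, scipy 1.17.1, pandas 2.3.3, matplotlib 3.10.9). Names of clusters came from 18 lists with 103 marker genes. Clusters with markers of 2 lineages, in which foreign markers reached 15%, stayed unnamed, and cells with at least 3 UMIs of basophil markers were taken out of the neutrophil cluster. Both rules, the bins of S100a8 and S100a9 UMIs, the groups by markers of another type and 5 of the 18 alternatives were chosen after seeing the data. Scrublet doublet scores were computed and cells with high ones kept. UMIs were summed by type and library, with exact Poisson intervals for levels, exact binomial intervals for ratios and Clopper-Pearson intervals for shares. A count of 0 was read against 3 UMIs. Alternatives changed the limits on genes and mitochondrial UMIs, the clustering and naming of cells, the treatment of doublets, and the scaling. The methods were tested on simulated data.

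The members and lists were chosen with earlier results of these data known. Named genes are all 10 members, called genes of the 6 fixed lists (otherwise the 3 with most UMIs in the type), for members with at least 200 UMIs the 3 genes with the highest Pearson r of log2(CPM + 10) over pools, and Yap1 and Wwtr1 in HCs. Il18bp in KCs was among the 3 with most UMIs. S100a8, S100a9 and marker genes named for their level were chosen after their values were seen.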

Additional observations from a re-analysis of the deposited data

Results flagged for a closer look

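Barcodes left out by the limits on genes and mitochondrial UMIs were counted apart, as CPM over those barcodes, and members called there against WT are given. They hold a mixture of cell types that was not resolved, and WT is no more than 1 library. In barcodes with fewer than 500 genes, Il1b stood at 63.6 CPM in YAPKO against 14.1 in WT. In barcodes with over 6000 genes, Il1b stood at 47.1 CPM in YAPKO and 93.3 in DKO against 14.0 in WT. There Il1rn was at 16.8 CPM in YAPKO, 13.8 in TAZKO and 13 in DKO against 6.04 in WT, and Tnf at 1.93 in YAPKO and 4.32 in DKO against 0.642. Tgfb1 was at 114 CPM in YAPKO and 130 in DKO against 53.5 in WT, and Csf1 at 49.9 in YAPKO and 52.3 in DKO against 19.4. In barcodes with 500 to 6000 genes but over 10% mitochondrial UMIs, Il1b stood at 96.2 CPM in YAPKO and 184 in DKO against 25.9 in WT, and Tgfb1 at 25.1 and 76.3 against 7.66. Lower calls follow as log2 ratios to WT. With fewer than 500 genes, TAZKO was lower for Il1a at -1.42 (6 UMIs against 19), Il1b at -2.0 (15 against 71) and Tgfb1 at -1.22 (25 against 69). With over 6000 genes, Il6 was lower in DKO at -3.25 (2 against 22), and with over 10% mitochondrial UMIs Il1b was lower in TAZKO at -3.42 (3 against 27).

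For 4 members the YAPKO library was called in opposite directions in 2 cell types, as log2 ratios to WT, and the difference between the types was not tested. Il1a was at 1.53 in cDCs and -1.29 in MACs, and Il1b at 1.18 in pDCs and -1.34 in KCs. Of the Il1a UMIs of YAPKO cDCs, 40 of 41 were in cells with 10 or more EC-marker UMIs, where the ratio was 0.79 (-0.45 to 2.32). YAPKO MACs with 0 or 1 such UMI gave 0.22 (-1.53 to 2.60), those with 2 to 9 gave -1.63 and those with 10 or more gave 0.10 (-2.51 to 3.49). In YAPKO pDCs without S100a8 and S100a9 UMIs the Il1b ratio was -3.34, the same direction as in KCs. Il18 was at 1.5 in neutrophils and -1.5 in ECs, and Tnf at 1.52 in neutrophils and -1.78 in cDCs.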

How the results depend on the processing

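The counts of members called in their leading types were the same within 1.5 times in 45 of 51 combinations of comparison and alternative. An equal count can hold other genes. With the limits read as UMIs, Csf1 replaced Il6 in YAPKO and Il18 replaced Il6 in DKO. With clusters that carry markers of 2 lineages counted, Osm replaced Tnf in YAPKO. With at least 2000 UMIs a cell, Il10 stood in the place of Tnf in DKO. In TAZKO the count went from 1 to 2 with the limits read as UMIs, to 4 with median-ratio scaling, and to 2 with basophils left in the neutrophil cluster. It went from 2 to 1 in YAPKO and DKO when each cell was assigned from marker genes, and to 1 in YAPKO with at least 2000 UMIs a cell, and in these 3 cases 5 members had a value. These alternatives left 19 and 16 TAZKO neutrophils, fewer than the 30 cells asked of every library. The genes led by neutrophils, Tnf among them, therefore had no value. The cause of the other changes was not tested. Alternatives were run for the 30 ratios of members in their leading types, of which no called one turned its direction, and not for ratios in other types. Among the latter, Il1b in YAPKO pDCs was 1.18 in all cells and -3.34 (-5.07 to -1.94) in cells without S100a8 and S100a9 UMIs. Ratios to WT moved beyond their interval in 25 of 413 values, levels in 66 of 552 and thinned shares in 32 of 40. No paired analysis was possible because the labels share replicate number 1 and give 1 library for each genotype. Depth limits Il6, Osm, Il10 and Tnf most, and 44 TAZKO neutrophils limit every neutrophil gene. Differences between mice cannot be told apart from differences between genotypes.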

Other observations

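The 25 basophils, taken out of the neutrophil cluster, were too few for a comparison. They held 6, 61, 6 and 5 Il6 UMIs in WT, YAPKO, TAZKO and DKO, of which 54 were in 1 YAPKO cell, and Csf1 at 407 CPM in WT, 793 in YAPKO, 1047 in TAZKO and 776 in DKO.

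Among clusters left unnamed, the one with neutrophil and EC markers (40, 90, 7 and 38 cells) held Il1b at 2181 CPM in WT, 1534 in YAPKO, 1718 in TAZKO and 1839 in DKO, with Il1a at 107 CPM in WT. The cluster with KC, EC and erythroid markers held Il18 at 116, 95.2, 38.2 and 49.6 CPM in the same order, lowest in TAZKO as in KCs. In the cluster with markers of hepatic stellate cells and ECs, the 21, 4, 21 and 18 cells with few EC-marker UMIs held Csf1 at 138, 273, 238 and 97.6 CPM, and 1 Il1a UMI in all.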
